A study of Mus musculus with 9 samples.

Results

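RNA sequencing counts of 10 genes of the hypoxia-inducible factor (HIF) pathway and of glucose uptake were compared between mouse dendritic cells (DCs) left unstimulated, treated with LPS or treated with IFN-β. The genes were chosen by their symbol: *Hif1a*, *Epas1*, *Egln1*, *Egln2*, *Egln3*, *Vhl*, *Slc2a1*, *Slc2a6*, *Pfkfb3* and *Ldha*, 10 of 55471 genes counted. The cells were bone marrow-derived DCs of the WT genotype, grown with GM-CSF at 20 ng/mL from C57BL/6 mice that the study's methods give as female and 8 to 20 weeks old. LPS, a component of the bacterial outer membrane, was used at 100 ng/mL and IFN-β, a type I interferon, at 1000 U/mL. All cells, the unstimulated ones included, were harvested at 6 h. Each condition had 3 libraries that carry the letters A, B and C. The labels do not say that the libraries came from separate mice or cultures, so the p-values measure the spread between these libraries, which may be technical.

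HIF is a transcription factor made of an oxygen-regulated α subunit, HIF-1α (*Hif1a*) or HIF-2α (*Epas1*), and a stable β subunit (*Arnt*). When oxygen is plentiful, the prolyl hydroxylases encoded by the *Egln* genes mark the α subunit, and the VHL protein (*Vhl*) then directs it to the proteasome. Classical HIF targets include the glucose transporter GLUT1 (*Slc2a1*), lactate dehydrogenase A (*Ldha*), *Pfkfb3*, whose product makes the strongest activator of phosphofructokinase, and *Egln3* itself. In LPS-activated DCs and macrophages HIF-1α is known for its part in the switch towards glycolysis, and much of the regulation acts on the protein, which RNA counts do not measure. *Slc2a6* encodes GLUT6, a transporter of the same family found on intracellular membranes of immune cells.

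HIF binds DNA at a short core, ACGTG or GCGTG, and the stretches before the start sites of 5 of the genes are printed as examples. All 5 were picked with the core present, so its presence in them follows from the choice. *Hif1a*, *Egln1* and *Egln2* hold the core as well and are not printed. The sequences are from RefSeq on GRCm38.p6, read 5′ to 3′ on the gene's own strand, and each is the part of the 250 bases before the start site that lies in no annotated exon. Capitals mark the core on either strand, and a core that reads the same on both strands (CACGTG) was counted as 1 site. The *Ldha* stretch is at chr7:46845554-46845803 (plus strand), that of *Pfkfb3* at chr2:11502102-11502340 (minus strand) and that of *Slc2a6* at chr2:27027999-27028248 (minus strand). The *Egln3* stretch is at chr12:54203875-54204124 (minus strand) and that of *Slc2a1* at chr4:119108495-119108710 (plus strand).
Ldha: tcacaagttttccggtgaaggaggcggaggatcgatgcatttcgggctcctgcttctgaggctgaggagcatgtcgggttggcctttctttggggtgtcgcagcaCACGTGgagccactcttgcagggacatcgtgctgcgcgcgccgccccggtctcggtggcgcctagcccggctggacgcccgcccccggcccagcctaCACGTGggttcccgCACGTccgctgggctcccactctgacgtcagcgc
Pfkfb3: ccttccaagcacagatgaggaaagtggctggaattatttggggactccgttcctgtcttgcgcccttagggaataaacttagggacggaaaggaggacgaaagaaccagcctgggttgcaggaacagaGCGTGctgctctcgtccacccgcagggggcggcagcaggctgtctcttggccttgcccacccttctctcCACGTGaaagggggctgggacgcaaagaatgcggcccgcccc
Slc2a6: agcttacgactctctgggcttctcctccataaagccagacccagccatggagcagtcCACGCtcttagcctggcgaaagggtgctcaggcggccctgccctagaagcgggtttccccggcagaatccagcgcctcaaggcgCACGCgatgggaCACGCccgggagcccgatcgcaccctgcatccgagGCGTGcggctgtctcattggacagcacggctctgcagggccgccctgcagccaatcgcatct
Egln3: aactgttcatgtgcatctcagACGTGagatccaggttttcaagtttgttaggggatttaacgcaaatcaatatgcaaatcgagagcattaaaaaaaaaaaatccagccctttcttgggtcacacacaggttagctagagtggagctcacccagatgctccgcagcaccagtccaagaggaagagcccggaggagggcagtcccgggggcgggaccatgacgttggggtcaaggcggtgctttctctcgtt
Slc2a1: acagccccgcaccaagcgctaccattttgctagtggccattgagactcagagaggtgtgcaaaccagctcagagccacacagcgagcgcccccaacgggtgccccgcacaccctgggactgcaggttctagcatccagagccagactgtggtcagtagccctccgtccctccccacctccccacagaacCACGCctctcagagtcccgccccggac

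In the stretches printed, *Slc2a6* held 4 cores, all of the GCGTG form, and *Ldha* held 3, all of the ACGTG form. *Pfkfb3* held 2 and *Egln3* held 1. *Ldha* and *Pfkfb3* each had a second window, at another start site, whose core is not printed. It held 1 core of the GCGTG form for *Ldha* and 1 of the ACGTG form for *Pfkfb3*. *Slc2a1* held 2 cores in its window of 250 bases, 1 of them in the stretch printed. RefSeq windows were matched for 9 of the 10 genes, with 12 windows in all, and no window was matched for *Epas1*. A core was present in 11 of these 12 windows and in 8 of 9 genes, the exception being *Vhl*. Of all 32851 windows of the same length, 38.6% held a core (16.6% the ACGTG form and 28.2% the GCGTG form). The GC content of the 12 windows was 48% to 86%, and the windows set beside them were not matched for it. The same windows were searched on both strands for other motifs that LPS and interferon signalling are known for. The NF-κB consensus was in 0 of 12 windows (7.25% of all windows) and the interferon-γ-activated site TTCNNNGAA in 0 of 12 (7.02%). The interferon-stimulated response element was in 1 of 12, that of *Vhl* (2.98%). These are matches of letters within short windows, and binding was not measured.

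In unstimulated DCs the levels of the 10 genes were spread over a wide range. On the scale of CPM (a gene's counts scaled to a common library size) per kb of exon, which allows genes to be compared, *Ldha* was highest at 189 ± 15.7 (SD, n = 3), followed by *Slc2a1* at 62.6 ± 3.26, *Slc2a6* at 35.2 ± 2.27 and *Hif1a* at 26.6 ± 3.94. The libraries of these 4 genes did not overlap in this order. *Vhl* (14.0), *Egln1* (13.9), *Egln2* (12.2), *Pfkfb3* (11.8) and *Egln3* (9.46) lay close together, and each overlapped the next in this order. *Epas1* was lowest at 1.29 ± 0.497 CPM per kb, below every other gene of the 10 in each condition. The order differed after LPS, where *Slc2a6* (178 ± 22.8) and *Ldha* (147 ± 15.8) overlapped at the top and *Hif1a* (63.8 ± 9.13) stood above *Slc2a1* (50.2 ± 4.52). In IFN-β-treated DCs *Ldha* (224 ± 18.1) led and *Slc2a6* (80.3 ± 8.35) lay above *Slc2a1* (66.0 ± 5.52), with no overlap between these 3. *Slc2a1* overlapped *Hif1a* (51.0 ± 11.2) there.

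All 10 genes passed the filter on low counts and were tested. LPS changed 9 of the 10 genes (4 higher and 5 lower), where 68.2% of all tested genes were changed by LPS (32.8% higher and 35.4% lower). Scaling by library size alone gave 3 higher and 7 lower with LPS. IFN-β changed 3, all of them higher, against 46.9% of all tested genes (23.6% higher and 23.3% lower). With the letters A, B and C as a block IFN-β raised 4 and lowered 2, and with scaling by library size alone it raised 3 and lowered 5. IFN-β-treated and LPS-activated DCs differed in 8 (5 higher and 3 lower with IFN-β), against 49.1% of all tested genes (25.8% higher and 23.3% lower). With shares this high among all genes, such counts say little about the 10 genes as a group. The median log2 fold change of the 10 genes was -0.21 with LPS and 0.09 with IFN-β, against -0.04 and -0.02 for all tested genes. The stimulated and unstimulated libraries did not overlap for 9 of the 10 genes with LPS (72.4% of all tested genes) and for 4 with IFN-β (58.1%), and the IFN-β and LPS libraries did not overlap for 8 (56.8%). Both stimuli were compared with the same unstimulated libraries. In bulk RNA, fewer cells that express a gene and less RNA per cell cannot be told apart.

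**Figure D1:**
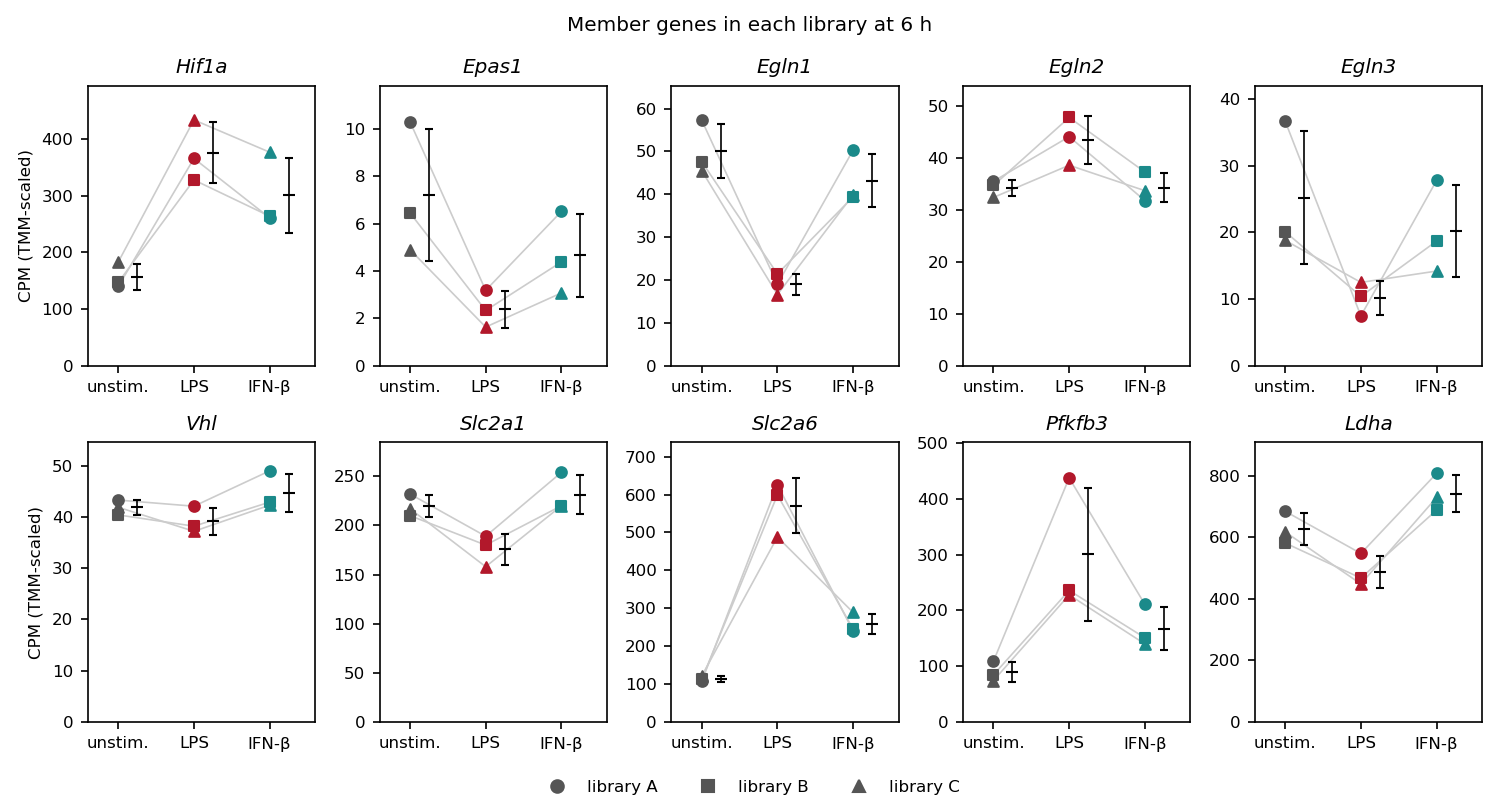
Expression of the 10 genes in each library at 6 h, in CPM scaled with TMM factors (linear axes from 0), with circles, squares and triangles for libraries A, B and C, grey lines joining libraries of the same letter, and bars for the mean and SD of 3 libraries. *Hif1a*, *Slc2a6* and *Pfkfb3* lie above their unstimulated libraries with both stimuli, whereas *Egln1* and *Egln3* are lowest in LPS-activated DCs, and *Slc2a1* and *Ldha* are lower in LPS-activated DCs than in the other two conditions.

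The α subunits moved in opposite directions with LPS. *Hif1a* was measured at 140, 147 and 183 CPM in unstimulated libraries A, B and C. It was at 366, 328 and 434 CPM in the LPS libraries and at 261, 264 and 377 CPM in the IFN-β libraries. Every stimulated library lay above every unstimulated one, and library C was the highest of its condition each time. The rise was 2.40-fold with LPS (1.26 ± 0.16 on the log2 scale, with the standard error after ± here and for later fold changes, adjusted p = 4.6e-05 by the quasi-likelihood F-test of edgeR) and 1.92-fold with IFN-β (0.94, adjusted p = 8.8e-04). The libraries of the 2 stimuli overlapped, and the difference between IFN-β and LPS was -0.32 (95% interval -0.68 to 0.03, adjusted p = 0.123). It passed the threshold with the letters as a block (-0.34, adjusted p = 6.5e-04), since *Hif1a* was lower with IFN-β than with LPS by 0.49, 0.31 and 0.20 within letters A, B and C on the log2 scale. The exons of *Hif1a* (12:73901375-73947530, plus strand, GRCm38) share 330 bases with the antisense transcript *Gm15283*, which had 22 to 134 counts per library against 5534 to 14140 for *Hif1a*.

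*Epas1* was the scarcest gene of the group, with 53 to 406 counts per library. Its level was 10.3, 6.45 and 4.90 CPM in unstimulated DCs, 3.18, 2.33 and 1.63 CPM with LPS and 6.51, 4.38 and 3.07 CPM with IFN-β, for libraries A, B and C. The LPS libraries lay below all unstimulated ones, the IFN-β libraries overlapped them, and library A was highest in each condition. LPS lowered *Epas1* 3.04-fold (log2 fold change -1.60 ± 0.35, adjusted p = 0.00188). The value for IFN-β was -0.62 (95% interval -1.34 to 0.10, adjusted p = 0.143), and with the letters as a block it was -0.63 and passed the threshold (adjusted p = 1.1e-04). IFN-β-treated DCs had more *Epas1* than LPS-activated DCs (0.98, adjusted p = 0.0407), a call kept in 4 of the 9 fits that each left out 1 library. Within a library, counts of *Hif1a* over those of *Epas1* rose from a log2 ratio of 4.50 ± 0.73 (SD, n = 3) to 7.35 ± 0.63 under LPS and 6.06 ± 0.82 under IFN-β (exact two-sided permutation p = 0.10 for each, the smallest that 3 libraries against 3 allow).

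The prolyl hydroxylase genes differed from each other. *Egln1*, which encodes PHD2, the main oxygen sensor of the HIF pathway, was at 57.3, 47.6 and 45.5 CPM in unstimulated libraries A, B and C and at 19.0, 21.4 and 16.6 CPM with LPS. With IFN-β it was at 50.3, 39.4 and 39.9 CPM, which overlapped the unstimulated range and lay above the LPS range. The fall with LPS was 2.64-fold (log2 fold change -1.40 ± 0.13, adjusted p = 3.6e-06) and stayed between -1.50 and -1.30 when any 1 library was left out. With IFN-β the change was -0.21 (95% interval -0.49 to 0.07, adjusted p = 0.191). In the blocked fit that value was the same and passed the threshold (adjusted p = 0.0318). *Egln1* was 2.27-fold higher in IFN-β-treated than in LPS-activated DCs (adjusted p = 3.1e-05).

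*Egln3*, which encodes PHD3 and is itself induced by HIF in many cells, also fell with LPS. Its unstimulated libraries A, B and C were at 36.7, 20.1 and 18.8 CPM, its LPS libraries at 7.47, 10.4 and 12.5 CPM and its IFN-β libraries at 27.8, 18.7 and 14.2 CPM. The spread was wide, and unstimulated library A stood apart from the other two. The fall with LPS was 2.48-fold (log2 fold change -1.31 ± 0.31, adjusted p = 0.00297), and within letters A, B and C it was -2.30, -0.96 and -0.59 on the log2 scale. The value for IFN-β was -0.31 (95% interval -0.96 to 0.35, adjusted p = 0.423), and it was 0.06 without unstimulated library A. *Egln3* was higher with IFN-β than with LPS (95% interval 0.32 to 1.69 on the log2 scale, adjusted p = 0.0199), a call kept in 6 of the 9 fits with 1 library left out.

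*Egln2* (PHD1) and *Vhl* moved little in the fit with TMM factors. *Egln2* was at 35.5, 34.7 and 32.4 CPM in unstimulated libraries A, B and C, at 44.1, 47.8 and 38.6 CPM with LPS and at 31.8, 37.3 and 33.7 CPM with IFN-β. Its LPS libraries lay above those of both other conditions, and the rise was 0.35 ± 0.09 on the log2 scale (adjusted p = 0.00562). Scaling by library size alone turned this value to -0.24 (adjusted p = 0.0427), whereas upper-quartile factors gave 0.25 and DESeq2 gave 0.39. The direction of *Egln2* with LPS thus rested on whether a factor beyond library size was used. Scaling by library size alone lowered the median of all tested genes by 0.58 with LPS and by 0.31 with IFN-β relative to TMM. The share of changed genes that were higher with LPS went from 48.1% to 21.9% (with IFN-β from 50.3% to 22.3%). The change of *Egln2* with IFN-β was 0.00 (95% interval -0.20 to 0.20). *Vhl* lay between 37.2 and 49.0 CPM in all 9 libraries, and its change was -0.10 with LPS (95% interval -0.27 to 0.08, adjusted p = 0.293) and 0.10 with IFN-β (-0.07 to 0.27, adjusted p = 0.329). Scaling by library size alone gave *Vhl* a value of -0.68 with LPS (adjusted p = 4.1e-06). The difference of *Vhl* between IFN-β and LPS, 0.19, was not past the threshold (adjusted p = 0.0606). It was with the letters as a block (adjusted p = 0.00834) and with scaling by library size alone (0.47, adjusted p = 1.9e-04).

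The 2 glucose transporters among the genes took opposite courses with LPS. *Slc2a6* was at 107, 112 and 121 CPM in unstimulated libraries A, B and C. It was at 626, 599 and 488 CPM with LPS and at 240, 245 and 289 CPM with IFN-β. The 3 conditions did not overlap, with LPS highest and unstimulated lowest. The rise was 5.05-fold with LPS (log2 fold change 2.34 ± 0.11, adjusted p = 3.2e-08), a larger increase than that of 94.4% of all tested genes. It was 2.28-fold with IFN-β (1.19 ± 0.11, adjusted p = 1.4e-05), and the difference between the stimuli was -1.15 (adjusted p = 1.1e-05). *Slc2a6* kept each of these calls under every other scaling, filter and fit tried and with any 1 library left out.

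*Slc2a1*, the gene of the ubiquitous transporter GLUT1, was at 232, 210 and 217 CPM in unstimulated libraries A, B and C, at 189, 180 and 158 CPM with LPS and at 254, 220 and 220 CPM with IFN-β. The LPS libraries were below all others, and the IFN-β libraries overlapped the unstimulated ones. LPS lowered it 1.25-fold (log2 fold change -0.32 ± 0.09, adjusted p = 0.00714), and the value for IFN-β was 0.08 (95% interval -0.12 to 0.27, adjusted p = 0.506). Relative to *Hprt*, a reference gene that itself fell by 0.41 with LPS (adjusted p = 2.4e-04), the LPS value of *Slc2a1* was 0.09 (exact two-sided permutation p = 0.60). *Slc2a1* was 1.32-fold higher with IFN-β than with LPS (adjusted p = 0.00336), a log2 difference of 0.40 that was 0.11 relative to *Hprt* (exact two-sided permutation p = 0.60).

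Per kb of exon, *Slc2a6* RNA was thus 0.501 to 0.610 times that of *Slc2a1* in unstimulated libraries, 3.36 to 3.63 times with LPS and 1.03 to 1.43 times with IFN-β. The log2 ratio of counts changed by 2.65 with LPS and 1.11 with IFN-β (exact two-sided permutation p = 0.10 for each and 0.136 after Benjamini-Hochberg adjustment over the 15 ratio tests). Of 14 glucose transporter genes listed, 5 passed the filter on low counts. LPS changed 4 of these 5 (1 higher and 3 lower), beside 68.2% of all tested genes. IFN-β changed 2 (1 higher and 1 lower), beside 46.9% of all tested genes. Scaling by library size gave 1 higher and 3 lower for IFN-β. *Slc2a8* (GLUT8), at 5.10 to 6.31 CPM in unstimulated libraries, had the largest fall of the list with both stimuli, -1.89 with LPS (adjusted p = 1.1e-06) and -0.84 with IFN-β (adjusted p = 6.5e-04) on the log2 scale. *Slc2a9*, a urate transporter, was lower with LPS (-0.41, adjusted p = 0.0172). *Slc2a3* (GLUT3) was close to undetected at 28 to 97 counts per library, with values of 0.26 for LPS (adjusted p = 0.509) and -0.69 for IFN-β (adjusted p = 0.141).

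**Figure D2:**
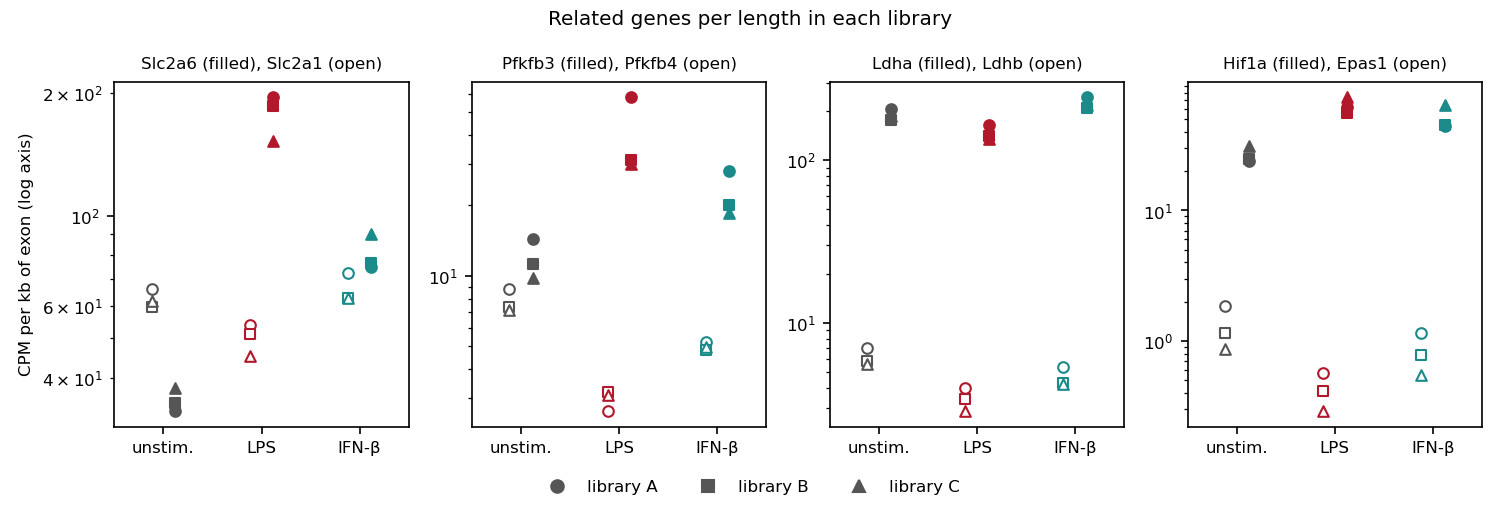
CPM per kb of exon (log axes) of 4 pairs of related genes in each library of the 3 conditions, filled symbols for the first gene and open symbols for the second, with circles, squares and triangles for libraries A, B and C. *Slc2a6* lies below *Slc2a1* in unstimulated DCs and above it with LPS, and the gap between *Pfkfb3* and *Pfkfb4* and between *Hif1a* and *Epas1* widens with both stimuli.

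*Pfkfb3* rose with both stimuli. It was at 109, 84.5 and 74.2 CPM in unstimulated libraries A, B and C. It was at 438, 236 and 228 CPM with LPS and at 211, 151 and 140 CPM with IFN-β. Every stimulated library was above every unstimulated one, and library A was highest in each condition, by the widest margin with LPS. The rise was 3.37-fold with LPS (log2 fold change 1.75 ± 0.26, adjusted p = 1.3e-04) and 1.88-fold with IFN-β (0.91 ± 0.26, adjusted p = 0.0136). Without IFN-β library A the second was 0.70 and missed the threshold (adjusted p = 0.0575). The difference between IFN-β and LPS was -0.84 (adjusted p = 0.0188), and it was -0.47 without LPS library A (adjusted p = 0.0636). Within letters A, B and C the rise with LPS was 2.01, 1.48 and 1.62.

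The 4 *Pfkfb* genes encode enzymes that make and break down fructose 2,6-bisphosphate, and *Pfkfb3* has the isoform with the strongest bias towards making it. *Pfkfb4* fell from 34.9 to 43.0 CPM in unstimulated libraries to 12.9 to 15.6 CPM with LPS (log2 fold change -1.38, adjusted p = 5.2e-07) and 23.5 to 25.3 CPM with IFN-β (-0.64, adjusted p = 3.8e-04). *Pfkfb2* fell by 1.81 with LPS (adjusted p = 7.0e-07) and by 0.67 with IFN-β (adjusted p = 0.00148) on the log2 scale. *Pfkfb1* had a log2 fold change of 0.32 with LPS (adjusted p = 0.0308), a direction that turned with scaling by library size, and -0.15 with IFN-β (adjusted p = 0.343). Per kb of exon, *Pfkfb3* was 1.37 to 1.63 times *Pfkfb4* in unstimulated libraries, 9.71 to 21.9 times with LPS and 3.74 to 5.37 times with IFN-β. The log2 ratio of their counts changed by 3.09 and 1.54 (exact two-sided permutation p = 0.10 for each).

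*Ldha*, which encodes the enzyme that turns pyruvate into lactate, did not rise with LPS at 6 h. It was at 684, 581 and 617 CPM in unstimulated libraries A, B and C, at 547, 467 and 448 CPM with LPS and at 807, 688 and 729 CPM with IFN-β. The 3 conditions did not overlap, with LPS lowest and IFN-β highest. The value for LPS was -0.36 ± 0.10 (adjusted p = 0.00838), a 1.29-fold fall, and relative to *Hprt* it was 0.05 (exact two-sided permutation p = 0.70). The value for IFN-β was 0.24 (95% interval 0.02 to 0.47, adjusted p = 0.0742). With the letters as a block it passed the threshold (0.24, adjusted p = 0.00438), as it was 0.24 within each letter, but scaling by library size alone gave -0.06. *Ldha* was 1.52-fold higher with IFN-β than with LPS (adjusted p = 6.1e-04), a call kept under every other scaling, filter and fit tried. *Ldha* has processed pseudogenes, and reads that map to several places are not counted in the mode the authors used, so its level may be understated.

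The other lactate dehydrogenase genes were far less abundant. *Ldhb* was lower with LPS (log2 fold change -0.85, adjusted p = 4.3e-04) and with IFN-β (-0.41, adjusted p = 0.0402). *Ldhd*, which encodes the enzyme for D-lactate, had a log2 fold change of 0.59 with LPS (adjusted p = 0.0152) and -0.06 with IFN-β (adjusted p = 0.833). It was scarce, at means of 0.986 CPM in unstimulated, 1.48 CPM in LPS and 0.949 CPM in IFN-β libraries. Per kb of exon, *Ldha* was 29.4 to 33.4 times *Ldhb* in unstimulated libraries, 41.4 to 47.1 times with LPS and 45.1 to 52.4 times with IFN-β.

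**Figure D3:**
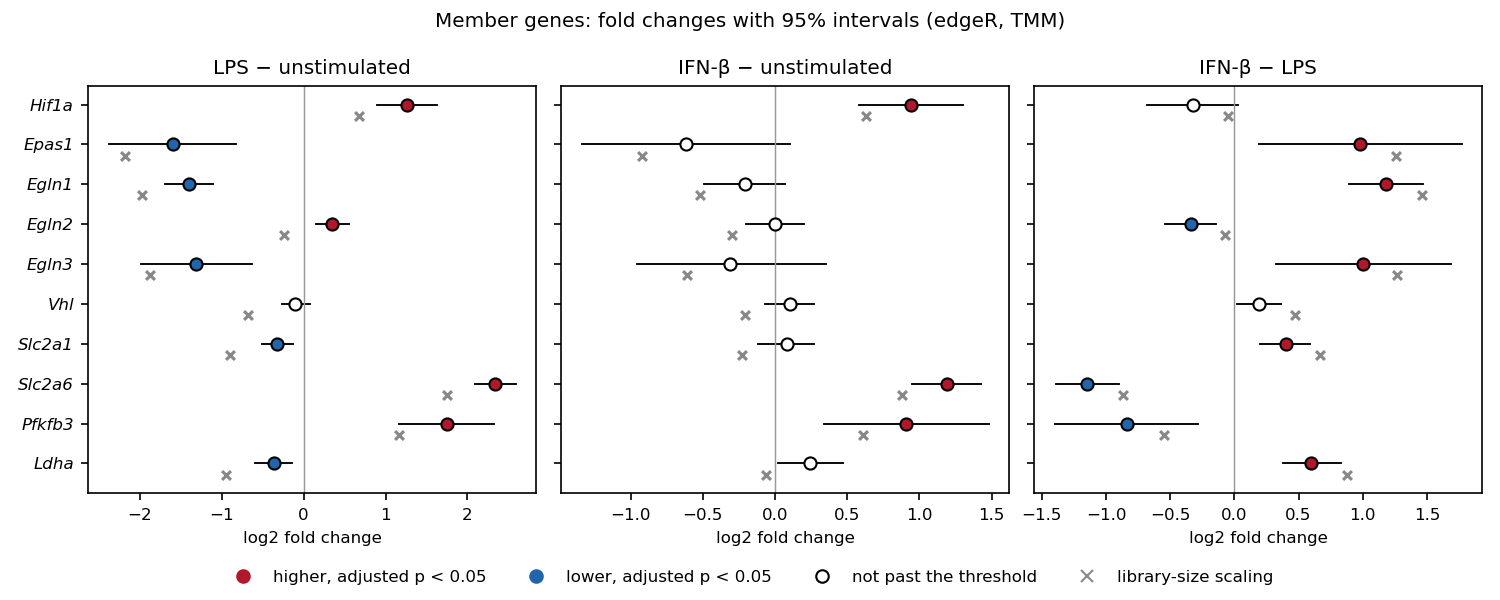
Log2 fold changes of the 10 genes in the 3 comparisons with 95% intervals, from the fit of all 9 libraries with TMM factors, filled red or blue where the adjusted p was under 0.05, with grey crosses for scaling by library size alone. *Slc2a6* has the largest rise with both stimuli and *Epas1* the largest fall with LPS, the members past the threshold with IFN-β are *Hif1a*, *Slc2a6* and *Pfkfb3*, and the cross of *Egln2* with LPS lies on the other side of 0.

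The wider HIF machinery was described with lists of its parts. Among all tested genes, LPS raised 32.8% and lowered 35.4% and IFN-β raised 23.6% and lowered 23.3%, shares against which the counts of every list were read. Of 5 HIF subunit genes tested, LPS changed 3 (1 higher and 2 lower, or 2 and 2 with the letters as a block) and IFN-β 2 (1 higher and 1 lower, or 1 and 3 with the letters as a block). The fall with IFN-β without the block was that of *Hif3a*, an inhibitory relative of the α subunits, which was scarce at 6 to 13 counts in unstimulated libraries and 1 to 3 counts with IFN-β (log2 fold change -1.70, adjusted p = 0.0189). With LPS it was at 9 to 11 counts (0.68, adjusted p = 0.139). *Arnt*, the shared β subunit, named here after its values were seen, was at 0.12 with LPS (adjusted p = 0.0707, or 0.0491 with the block) and 0.02 with IFN-β (adjusted p = 0.795). Scaling by library size gave *Arnt* a value of -0.46 with LPS. Of 12 genes for HIF hydroxylases and degradation, LPS changed 10 (7 higher and 3 lower) and IFN-β 3 (2 higher and 1 lower, or 3 and 2 with the block). Scaling by library size gave 2 higher and 7 lower for LPS and 0 higher and 7 lower for IFN-β. Upper-quartile factors gave 6 higher and 4 lower for LPS and 0 higher and 1 lower for IFN-β. DESeq2 gave 8 higher and 3 lower for LPS and 2 higher and 1 lower for IFN-β. The balance of this list thus depended on the scaling, and with LPS it turned only under scaling by library size. *P4htm*, an endoplasmic reticulum prolyl hydroxylase, had the largest rise of this list with LPS (1.09, adjusted p = 0.0292). It was scarce, at means of 0.239 CPM in unstimulated and 0.517 CPM in LPS libraries. *Cul2*, the scaffold of the VHL ubiquitin ligase, had the largest rise with IFN-β (0.31, adjusted p = 0.0232).

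Of 7 genes for HIF coactivators and feedback, each stimulus raised 5 and lowered 0 (median log2 fold change 0.59 with LPS and 0.34 with IFN-β). The block gave 5 higher and 1 lower with LPS, and scaling by library size gave 2 higher and 3 lower with LPS and 3 higher and 1 lower with IFN-β. *Cited2* and *Cited4* encode proteins of a family that binds the coactivators CBP and p300, and CITED2 competes there with HIF-1α. *Cited2* rose from 16.9 to 20.8 CPM in unstimulated libraries to 48.3 to 86.7 CPM with LPS (log2 fold change 1.80, adjusted p = 1.1e-05) and to 39.6 to 51.7 CPM with IFN-β (1.29, adjusted p = 3.4e-04). *Cited4* rose with IFN-β, from 1.65 to 3.42 CPM to 6.30 to 11.2 CPM (1.86, adjusted p = 4.2e-04), while its value for LPS was -0.39 (adjusted p = 0.292, or -0.37 and 0.027 with the block), and the difference between the stimuli was 2.26 (adjusted p = 1.3e-04).

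Targets of hypoxia outside glycolysis were split. Of 26 tested (27 listed), LPS raised 8 and lowered 13 (median -0.27), and IFN-β raised 5 and lowered 4 (median 0.18), with 9 higher and 6 lower for IFN-β with the letters as a block. When scaled to library totals, the counts were 4 higher and 17 lower with LPS and 5 higher and 8 lower with IFN-β. *Edn1*, the precursor of endothelin, rose by 3.67 on the log2 scale with LPS (adjusted p = 2.7e-07) and by 2.32 with IFN-β (adjusted p = 2.5e-05). *Angptl4*, an inhibitor of lipoprotein lipase, fell to 1 to 8 counts per library with LPS from 99 to 182 counts (-4.66, adjusted p = 3.9e-06), and to 21 to 33 counts with IFN-β (-2.19, adjusted p = 3.4e-04). *Vegfa*, the angiogenic growth factor, was named after its values were seen. It was lower with LPS (-0.79, adjusted p = 0.00211) and higher with IFN-β (1.01, adjusted p = 8.7e-04). *P4ha1* and *Adm* of this list were named in the same way and rose with LPS (1.25, adjusted p = 2.4e-05, and 3.16, adjusted p = 1.1e-05). With IFN-β their values were 1.27 (adjusted p = 6.9e-05) and -0.13 (adjusted p = 0.825). *Adm* was scarce, at means of 0.350 CPM in unstimulated and 3.13 CPM in LPS libraries.

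**Figure D4:**
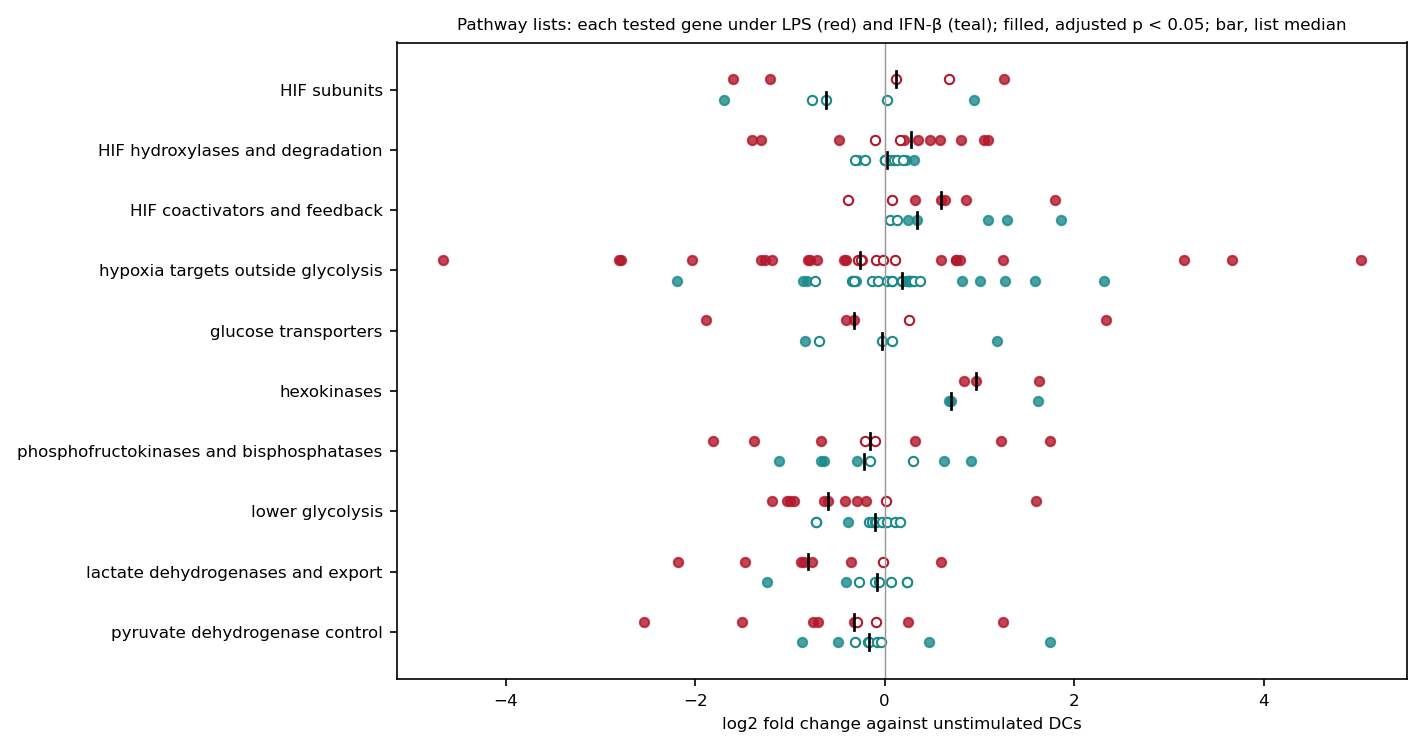
Log2 fold change against unstimulated DCs of every tested gene in 10 lists, LPS in red and IFN-β in teal, filled where the adjusted p was under 0.05, with a black bar at the median of each list. The 3 hexokinase genes lie above 0 with both stimuli, and the lowest point with LPS is *Angptl4* at -4.66. Most genes of lactate dehydrogenases and export and of the list labelled lower glycolysis lie below 0 with LPS. The latter list also holds upper steps such as *Gpi1*.

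The steps after glucose uptake did not move together. Their counts stand beside 32.8% higher and 35.4% lower with LPS, and 23.6% and 23.3% with IFN-β, among all tested genes. All 3 hexokinase genes tested, whose products trap glucose in the cell as glucose 6-phosphate, rose with both stimuli under each scaling. *Hk3* had the largest rise, from 143 to 214 CPM in unstimulated libraries to 473 to 634 CPM with LPS (log2 fold change 1.63, adjusted p = 4.0e-06) and 511 to 610 CPM with IFN-β (1.62, adjusted p = 1.8e-05). Of 8 phosphofructokinase and bisphosphatase genes tested, LPS raised 3 and lowered 3, and IFN-β raised 2 and lowered 4 (2 and 5 with either stimulus when scaled by library size). *Pfkm*, the muscle type of phosphofructokinase, had the largest fall of that list with IFN-β (-1.11, adjusted p = 1.6e-04) and was at -0.10 with LPS (adjusted p = 0.562). Of 11 genes of lower glycolysis, LPS lowered 9 and raised 1 (median -0.60). *Gpi1*, glucose 6-phosphate isomerase, had the largest fall, from 507 to 591 CPM to 207 to 253 CPM (-1.19, adjusted p = 9.7e-07). The rise was that of *Eno2*, an enolase best known from neurons, at 1.32 to 2.03 CPM in unstimulated libraries and 4.92 to 5.86 CPM with LPS (1.60, adjusted p = 2.9e-05). IFN-β lowered 2 of these 11, the larger fall being that of the aldolase gene *Aldoc* (-0.72, adjusted p = 0.00203), where the block gave 4 lower and scaling by library size 9 lower.

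Genes for the fates of pyruvate were mostly lower with LPS. Among 8 genes of lactate dehydrogenases and export, LPS lowered 6 and raised 1 (median -0.81), and IFN-β lowered 2 (3, with 1 raised, in the blocked fit, and 5 when scaled by library size). *Slc16a7*, the monocarboxylate transporter MCT2, had the largest fall with LPS (-2.18, adjusted p = 2.0e-05) and was at 0.24 with IFN-β (adjusted p = 0.397). *Slc16a1* (MCT1) had the largest fall with IFN-β (-1.24, adjusted p = 3.9e-04). *Slc16a3* (MCT4), the lactate exporter of glycolytic cells, was named after its values were seen and fell from 110 to 145 CPM to 34.3 to 49.9 CPM with LPS (-1.47, adjusted p = 1.6e-05). Its value for IFN-β was -0.10 (adjusted p = 0.648). Of 9 genes that control pyruvate dehydrogenase, LPS raised 2 and lowered 5, and IFN-β raised 2 and lowered 2 (2 and 5 with the letters as a block). When scaled to library totals, the counts were 1 higher and 8 lower with LPS and 1 higher and 7 lower with IFN-β. *Pdk3*, a kinase that switches the complex off, rose with LPS (1.25, adjusted p = 1.3e-06) and with IFN-β (1.75, adjusted p = 1.2e-06), and the kinase gene *Pdk2* fell with both (-2.54, adjusted p = 4.2e-06, and -0.87, adjusted p = 0.00647). *Pdk1*, the kinase best known as a HIF target, was named after its values were seen and fell by 1.51 with LPS (adjusted p = 3.6e-05). Its value for IFN-β was -0.31 (adjusted p = 0.194, or -0.32 and 0.00227 with the block).

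For each of the 10 genes, the other tested gene with the highest Pearson correlation of log2(CPM + 0.5) over the 9 libraries was taken. These values share the 3 conditions and the letters, and are given as a description. The closest were *Larp1* for *Slc2a6* (r = 0.9983), *Cxcr4* for *Egln1* (0.9949), *Cyp4v3* for *Pfkfb3* (0.9945), *Zbtb12* for *Hif1a* (0.9904) and *Afdn* for *Ldha* (0.9902). For the others they were *Cracdl* with *Epas1* (0.9895), *Slc26a2* with *Vhl* (0.9869), *Ccdc28a* with *Egln2* (0.9840), *Spats2* with *Slc2a1* (0.9823) and *Fam122b* with *Egln3* (0.9684). *Cxcr4*, a chemokine receptor that is also on the list of hypoxia targets, was at 24.6 to 37.4 CPM in unstimulated libraries, 3.32 to 5.39 CPM with LPS and 18.8 to 29.9 CPM with IFN-β.

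The libraries held 33425803 to 43735199 counts on genes, with TMM factors of 1.18 to 1.26 in unstimulated, 0.783 to 0.841 in LPS and 0.977 to 1.02 in IFN-β libraries. All 7 markers of DCs and antigen presentation were detected, with a summed level of 4380 to 5240 CPM in unstimulated, 6380 to 7150 in LPS and 5020 to 5280 in IFN-β libraries. The 6 markers of macrophages and monocytes summed to 1730 to 2080, 2400 to 2850 and 1960 to 2190 CPM. With LPS 4 of them were higher and 1 lower, beside 32.8% and 35.4% of all tested genes. *Cd14* rose from a mean of 75.8 CPM to 700 CPM with LPS, and *Csf1r* fell from 1100 CPM to 562 CPM. The 6 markers of neutrophils summed to 19.9 to 52.5, 52.4 to 158 and 33.3 to 83.4 CPM, mostly from *Csf3r* (means of 18.4, 79.6 and 41.1 CPM). Of these 6, 3 passed the filter on low counts, and *Ly6g*, *Mpo* and *Elane* had means of 0.162 CPM or less. Library A held the most of the neutrophil markers *Csf3r* and *S100a9* in each condition. The same was so for *Epas1*, *Vhl*, *Slc2a1*, *Pfkfb3* and *Ldha*, whereas library C held the most *Hif1a* each time. The 3 markers of plasmacytoid DCs summed to 36.4 to 44.2, 209 to 255 and 73.2 to 95.7 CPM, nearly all from *Tcf4*, while *Siglech* had 0 or 1 counts in each library. Stromal markers summed to at most 7.85 CPM, and markers of B cells, of T and NK cells, of mast cells and basophils and of erythroid cells each summed to 0.389 CPM or less. The part of other cells in the results was not tested.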

How the data were processed

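RNA from 9 libraries (3 conditions of 3 libraries) was sequenced after removal of ribosomal RNA. The authors trimmed the reads, mapped them to the mouse genome (mm10/GRCm38) with STAR, counted them per gene of a GENCODE release with STAR's gene count mode, and deposited raw counts for each gene and library, with no normalization and no filter on low counts. The submitters' processing notes name Trim Galore 0.6.0 and STAR 2.7.8a. The strand setting is not given in the sources used here. Samples were grouped by the treatment in the labels.

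Counts were tested in R 4.3.3 (edgeR 4.0.16, with limma 3.58.1), in 1 model of the 3 conditions over all 9 libraries, with TMM factors, the filterByExpr filter (16260 of 55471 genes kept), quasi-likelihood F-tests and Benjamini-Hochberg adjustment over all tested genes at 0.05. CPM uses the TMM-scaled library size, and a pseudocount of 0.5 CPM was added before correlations and log2 values of single libraries. Ratios within a library were compared by exact two-sided permutation tests. After subtracting group means, the 9 pairs of libraries with the same letter correlated at 0.13 to 0.55 across genes (mean 0.39), and the 18 other pairs at -0.48 to 0.06. By this check of the data, not by the labels, the letters were taken to pair the libraries, and the fit with the letters as a block is given where it changed the call of a gene described or moved a count by a large factor. Alternatives were DESeq2 1.42.0, upper-quartile factors, library sizes with no further factor, other filters and thresholds, a fit of the 2 compared groups, ratios to *Hprt* and leaving out each library. Total counts of 33425803 or more per library make counting error small except for genes at a few CPM or less and the genes given with fewer than 100 counts. The former include *P4htm*, *Ldhd*, *Adm*, *Eno2* and *Cited4*.

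Gene coordinates, exon lengths and overlaps are from GENCODE M21 on GRCm38, a later release than the one counted, and promoter windows are from RefSeq. The genes named are the 10 members, tested genes of their families, the changed gene with the largest rise and fall of each list with each stimulus, the closest gene to each member, *Hprt* and marker genes. Others are marked, and 1 gene that this rule names is not reported here. The members and lists were chosen with earlier results of these data known.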

Additional observations from a re-analysis of the deposited data

How the results depend on the processing

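LPS changed 9 of the 10 genes whichever library was left out, IFN-β changed 3 to 4, and IFN-β and LPS differed in 6 to 8. With LPS all 10 were called with scaling by library size only (3 higher and 7 lower) and with upper-quartile factors (4 higher and 6 lower). Members changed by IFN-β numbered 8 with scaling by library size only, 6 with the replicate letters as a block and 1 where a change of at least 1 on the log2 scale was also required. Members that differed between the stimuli numbered 5 at an adjusted p under 0.01 and 3 with that requirement. Beside the calls given with the results, the block changed no other call of a member. Scaling by library size only reversed *Egln2* with LPS (-0.24), and with IFN-β *Egln2* (-0.30), *Vhl* (-0.21), *Slc2a1* (-0.23) and *Ldha* (-0.06), and it took the call from *Egln2* (-0.07) and *Pfkfb3* (-0.55) between the stimuli. Upper-quartile factors reversed *Egln2* (-0.07) and *Slc2a1* (0.00) with IFN-β, and values of *Egln2* with IFN-β also fell below 0 with at least 10 counts in every library (0.00) and in a fit of only the 2 groups (-0.01). Relative to *Hprt*, *Vhl* (0.31 with LPS and -0.09 between the stimuli), *Slc2a1* (0.09) and *Ldha* (0.05) with LPS reversed. Leaving out 1 library moved the IFN-β values of *Egln2* from -0.06 to 0.05, of *Egln3* from -0.62 to 0.06 and of *Slc2a1* from 0.00 to 0.11, and the log2 ratio of *Slc2a3* to *Slc2a1* with LPS from -0.07 (without LPS library C) to 0.85. Causes were not tested beyond what each alternative changes by construction. *Slc2a3* and *Hif3a* had fewer than 100 counts in every library, and depth limits their values. It also limits other genes at a few CPM or less, among them *P4htm* and *Ldhd*, whose means were highest with LPS, at 0.517 and 1.48 CPM. The standard error of *Epas1* with LPS was 0.35, and 0.11 with the block.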
